A study of Mus musculus with 4 samples.

Results

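The 10 genes described here, Dlx1, Dlx2, Dlx3, Dlx5, Dlx6, Hand2, Barx1, Lhx6, Lhx8 and Gsc, encode transcription factors that pattern the first pharyngeal arch, the embryonic tissue that forms the jaws. They were taken by symbol from the 27998 genes of the count tables, and each symbol was found once. Their levels were followed in the submandibular and parotid salivary glands of ICR mouse embryos at embryonic day 12, in mesenchyme and in epithelium. The 4 groups were submandibular mesenchyme, parotid mesenchyme, submandibular epithelium and parotid epithelium. The labels name no treatment or mutation. Each group was 1 library, and about 10 glands of each kind were pooled, per the labels' protocols. There were no replicates. No difference below therefore has a test, and every interval is a 95% interval for counting error, which does not cover differences between embryos, litters or dissections.

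In mouse, cranial neural crest cells carry a nested pattern of Dlx homeobox genes along the arch. Dlx1 and Dlx2 are used along its whole length, and Dlx5 and Dlx6 in the lower part, where endothelin signalling through its receptor Ednra turns them on. Hand2 and Gsc act downstream of these genes in the lower jaw, while Barx1, Lhx6 and Lhx8 mark mesenchyme near the oral and dental epithelium, where FGF8 from the epithelium is one of their inducers. Salivary glands form from oral epithelium and neural crest mesenchyme of the same region.

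Dispase II loosened epithelium from mesenchyme, and single cells were captured on the 10x Chromium system, per the labels' protocols. The libraries held between 1996 and 4971 barcodes, and 120 barcode sequences occurred in more than 1 library. Classes named from markers gave 4227 submandibular and 3910 parotid mesenchymal-like cells from the mesenchyme libraries, and 3609 submandibular and 1762 parotid epithelial-like cells from the epithelium libraries. Their median depths were 5269 UMIs per cell in submandibular and 5561.5 UMIs in parotid mesenchyme (a UMI is a tag that lets copies of the same captured RNA be counted once), and 9833 UMIs in submandibular and 7121 UMIs in parotid epithelium. All 9 mesenchymal markers were detected in both mesenchymal-like classes, with summed levels of 2786 and 3406 CPM (UMIs per 1000000 UMIs of the class) in submandibular and parotid cells, against 14.1 and 34.51 CPM in submandibular and parotid epithelial-like cells.

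Regions upstream of 4 of the genes are shown because these genes carry the main differences below: Gsc and Hand2 were higher in submandibular mesenchyme, Lhx8 in parotid mesenchyme, and Barx1 was the member that reached 10 CPM in submandibular epithelium. The choice was made after their values had been seen. Each sequence runs 5′ to 3′ on the gene's own strand, from 250 to 101 bases before the RefSeq transcription start (GRCm38.p6). RefSeq promoters were found for 7 of the 10 genes, without Dlx3, Dlx5 and Dlx6. Capitals mark TAAT or its reverse complement ATTA, the core that many homeodomain proteins, the Dlx family among them, can bind.
Gsc, chr12:104473337-104473486, minus strand: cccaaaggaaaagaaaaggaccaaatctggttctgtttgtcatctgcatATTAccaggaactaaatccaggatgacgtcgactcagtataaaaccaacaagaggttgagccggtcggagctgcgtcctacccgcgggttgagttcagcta
Hand2, chr8:57320733-57320882, plus strand: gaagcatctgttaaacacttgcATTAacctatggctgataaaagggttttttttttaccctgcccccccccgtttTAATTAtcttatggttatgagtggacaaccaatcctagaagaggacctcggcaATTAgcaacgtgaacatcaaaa
Lhx8, chr3:154330661-154330810, minus strand: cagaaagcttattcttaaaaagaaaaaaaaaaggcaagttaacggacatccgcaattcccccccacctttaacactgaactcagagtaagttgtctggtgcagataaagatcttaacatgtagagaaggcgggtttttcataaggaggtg
Barx1, chr13:48662786-48662935, plus strand: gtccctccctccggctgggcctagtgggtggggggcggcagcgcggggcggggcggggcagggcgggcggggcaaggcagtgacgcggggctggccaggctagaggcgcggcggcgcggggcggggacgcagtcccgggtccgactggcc
The Gsc window held 1 such core and the Hand2 window held 4, of which a pair overlapped in 1 copy of TAATTA. The Lhx8 and Barx1 windows held 0. Of 32851 RefSeq windows of the same length and position, 43.6% held TAAT on either strand and 3.24% held TAATTA, so a core alone is common. A match in such a window is a description of its letters only.

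Between the mesenchymes, Gsc and Hand2 were higher in submandibular cells and Lhx8, Lhx6 and Dlx5 in parotid cells. Dlx1, Dlx2, Dlx6 and Barx1 differed by less than 2-fold. A gene was called higher when its ratio was 2 or more and its higher level 10 CPM or more, a level that 9 of the 10 genes reached in the mesenchymes; Dlx3 did not. Of these 9, 2 were called higher in submandibular cells and 3 in parotid cells. Over all 8364 genes at this level, 6.11% were called higher in submandibular mesenchyme, 3.93% in parotid mesenchyme and 10% either way. The median log2 ratio (submandibular over parotid) was -0.66 over the 9 genes and 0.08 over all 8364 genes.

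**Figure D1:**
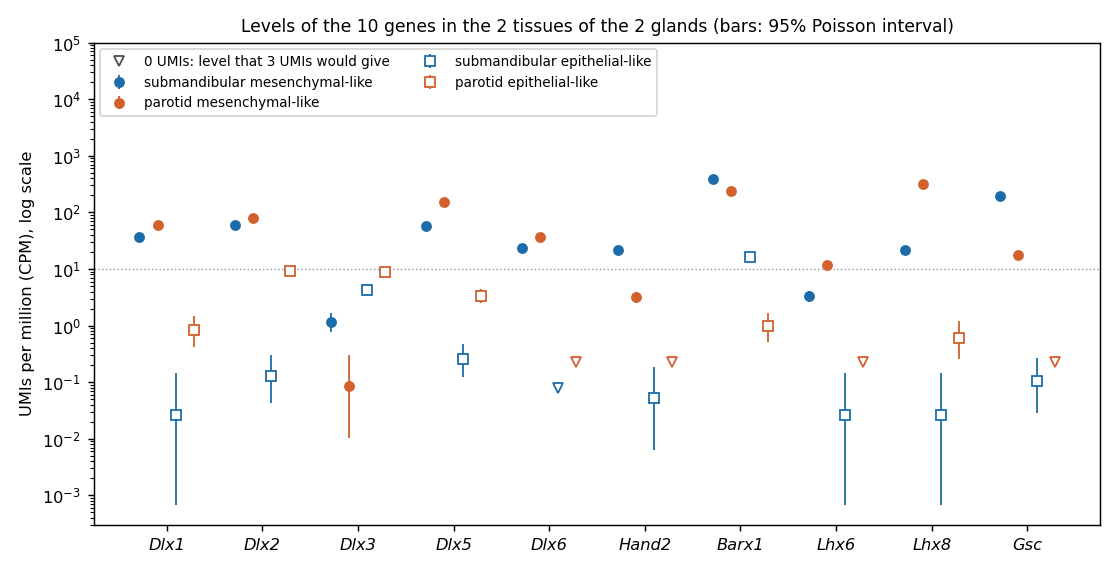
Level of each gene in CPM (log axis) in submandibular and parotid mesenchymal-like cells (filled circles) and in submandibular and parotid epithelial-like cells (open squares), with 95% Poisson intervals; open triangles mark classes with 0 UMIs at the level 3 UMIs would give. Except for Dlx3, every gene lies higher in mesenchyme than in epithelium of the same gland, and the dotted line marks 10 CPM.

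Dlx1 and Dlx2, the pair used along the whole arch, lie side by side on chromosome 2 (71528113 to 71533981, plus strand, and 71543408 to 71546754, minus strand). Dlx1 had 36.7 CPM (34.33 to 39.19) in submandibular and 60.7 CPM (57.62 to 63.94) in parotid mesenchymal-like cells. Its level was 1.65 times higher in parotid cells (1.52 to 1.80), short of the 2-fold call. Dlx2 had 60.7 CPM in submandibular and 79.3 CPM in parotid cells, 1.31 times higher in parotid cells (1.22 to 1.40). Both genes were thus present in both mesenchymes with modest gland differences in the same direction. The antisense gene Dlx1as overlaps Dlx1, and whether counting used strand is not given in the sources used here, so a part of the Dlx1 signal could belong to it.

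Dlx5 and Dlx6, the pair that specifies the lower jaw in mouse, lie next to each other on chromosome 6 (6877805 to 6882085, minus strand, and 6863334 to 6868568, plus strand). Dlx5 had 1376 UMIs, 56.5 CPM, in submandibular cells and 3683 UMIs, 155.5 CPM, in parotid cells. This was a 2.75-fold higher level in parotid mesenchyme (2.58 to 2.93). Dlx6 had 23.5 CPM in submandibular and 37.1 CPM in parotid cells, 1.58 times higher in parotid cells (1.42 to 1.75) and under the call. The antisense gene Dlx6os1, which overlaps Dlx6, had 8.43 CPM in submandibular and 45.4 CPM in parotid cells. Reads of Dlx6 and Dlx6os1 cannot be told apart where they overlap unless counting used strand.

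Dlx3, which in mouse is used at the distal end of the arch and in ectoderm (chromosome 11, 95120119 to 95125296, plus strand), was at the limit of detection in mesenchyme. It had 28 UMIs in all submandibular mesenchymal-like cells (1.15 CPM) and 2 UMIs in parotid ones (0.0845 CPM). No gland difference is drawn from so few molecules.

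Hand2 and Gsc are both known as lower jaw genes downstream of endothelin signalling, and both had their higher level in submandibular mesenchyme, opposite in direction to Dlx5. Hand2, a basic helix-loop-helix factor of the distal jaw (chromosome 8, 57320983 to 57324633, plus strand), had 536 UMIs, 22.0 CPM (20.2 to 23.98), in submandibular cells and 75 UMIs, 3.17 CPM (2.49 to 3.97), in parotid cells. The ratio was 6.96 (5.46 to 8.98). Gsc, the goosecoid homeobox gene (chromosome 12, 104471209 to 104473330, minus strand), had 191.3 CPM (185.8 to 196.9) in submandibular cells and 17.9 CPM (16.2 to 19.6) in parotid cells, a ratio of 10.7 (9.69 to 11.9). Hand2os1 overlaps Hand2 on the other strand, with the same limit on strand.

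Lhx8 and Lhx6, LIM homeobox genes of oral and dental mesenchyme, were higher in parotid mesenchyme. Lhx8 (chromosome 3, 154306294 to 154330659, minus strand) had 538 UMIs, 22.1 CPM (20.28 to 24.06), in submandibular cells and 7501 UMIs, 316.7 CPM (309.6 to 324), in parotid cells. The level was 14.3-fold higher in parotid cells (13.1 to 15.7), the widest gland ratio among the 9 genes that reached 10 CPM in mesenchyme. Lhx6 (chromosome 2, 36081953 to 36105408, minus strand) was sparse, with 81 UMIs, 3.33 CPM, in submandibular and 279 UMIs, 11.8 CPM, in parotid cells, 3.54-fold higher in parotid cells (2.75 to 4.59). Barx1, a homeobox gene of molar and proximal arch mesenchyme (chromosome 13, 48662998 to 48666507, plus strand), had 391.2 CPM in submandibular and 241.5 CPM in parotid cells, a ratio of 1.62 (1.57 to 1.67) that missed the call.

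**Figure D2:**
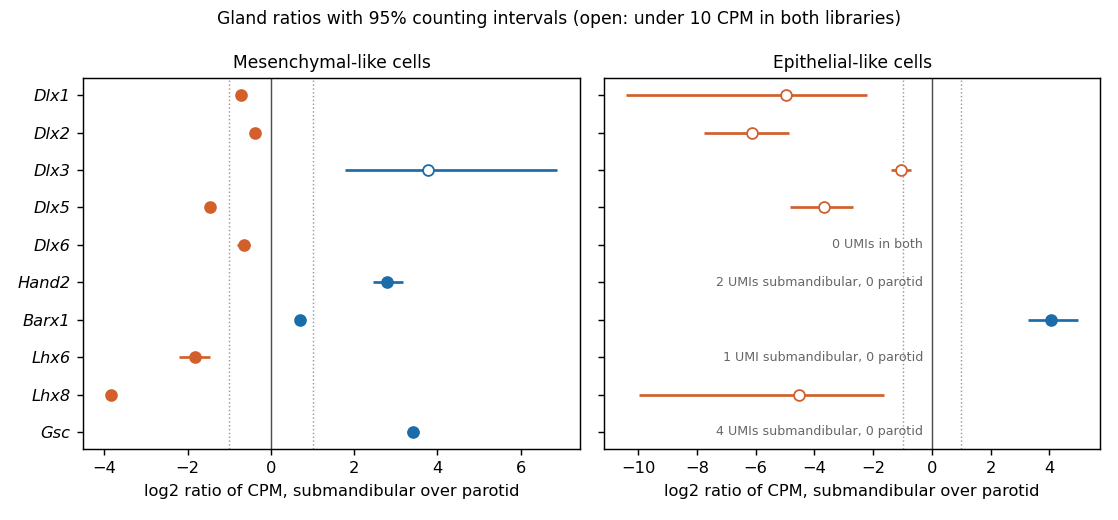
Log2 ratio of CPM, submandibular over parotid, in mesenchymal-like (left) and epithelial-like cells (right), with 95% counting intervals; dotted lines mark 2-fold and open symbols mark genes under 10 CPM in both libraries. In mesenchyme Gsc and Hand2 lie beyond 2-fold to the right and Lhx8, Lhx6 and Dlx5 to the left, and in epithelium Barx1 is the gene that reached 10 CPM.

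Other genes of the same pathways, from fixed lists, did not all follow one gland. These lists were drawn up with earlier results of these data known. Of 13 endothelin signalling genes, 8 reached 10 CPM in a mesenchyme, with 1 higher in submandibular and 2 in parotid cells and a median log2 ratio of 0.03. Edn3, an endothelin ligand, had 26.7 CPM in submandibular and 4.81 CPM in parotid cells. The receptor gene Ednra had 21.6 CPM in submandibular and 46.4 CPM in parotid cells, and Mef2c, a transcription factor gene downstream of the receptor, had 9.08 CPM in submandibular and 40.6 CPM in parotid cells. The higher level of Ednra and Mef2c was thus in the same mesenchyme as that of Dlx5, while Hand2 and Gsc had theirs in the other.

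Of 11 genes listed as mandibular or close to Dlx5 and Dlx6, 5 reached 10 CPM, with 4 higher in submandibular and 1, Dlx6os1, in parotid mesenchyme (median log2 ratio 1.78). The 4 were the imprinted zinc finger gene Plagl1, at 339.9 CPM in submandibular and 4.81 CPM in parotid cells, the homeobox genes Pitx1, at 649.5 CPM in submandibular and 189.4 CPM in parotid cells, and Alx4, at 16.3 CPM in submandibular and 1.99 CPM in parotid cells, and the transcriptional coregulator gene Cited1, at 42.7 CPM in submandibular and 15.8 CPM in parotid cells. Of 8 maxillary or proximal genes, 6 reached 10 CPM, of which Meis2 was higher in submandibular cells and 3, Pou3f3 and Irx5 among them, were higher in parotid cells (median log2 ratio -0.63). Meis2, a TALE homeobox gene, had 206.6 CPM in submandibular and 54.8 CPM in parotid cells. Irx5 had 0.986 CPM in submandibular and 23.2 CPM in parotid cells, and Pou3f3 had 2 UMIs in submandibular and 2808 UMIs in parotid cells.

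Of 8 genes of dental and oral mesenchyme, 5 reached 10 CPM, with Pitx1 higher in submandibular cells and 3 higher in parotid cells (median log2 ratio -1.504). Msx1, a homeobox gene of tooth mesenchyme, had 1.36 CPM in submandibular and 99.4 CPM in parotid cells. Osr2, a zinc finger gene of palate and tooth mesenchyme, had 135.6 CPM in submandibular and 534.4 CPM in parotid cells, and Runx2, the osteoblast factor gene, had 3.78 and 10.7 CPM in submandibular and parotid cells. Of 8 Hox genes of the second arch and behind, Hoxd1 alone reached 10 CPM, with 0 UMIs in submandibular and 368 UMIs, 15.5 CPM, in parotid cells. Against the level that 3 UMIs would give over the submandibular class, this is a 126-fold higher level in parotid cells. The counting interval of the ratio had a lower limit of 102.

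The members were not spread alike over the cells of the glands. Gsc and Hand2 were found throughout submandibular mesenchyme, whereas in parotid mesenchyme they were concentrated in cells with little Dlx5 and Barx1. Cells were clustered with the 10 genes and all genes of the pathway lists left out, which gave 11 mesenchymal-like clusters in each library. Cluster ranges of the glands overlapped for 9 of the 10 genes. Lhx8 was the exception, with 0 to 64.6 CPM over submandibular clusters and 160.1 to 484.2 CPM over parotid clusters. The share of all genes whose cluster ranges overlap was not measured, so this count has nothing to be set against.

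**Figure D3:**
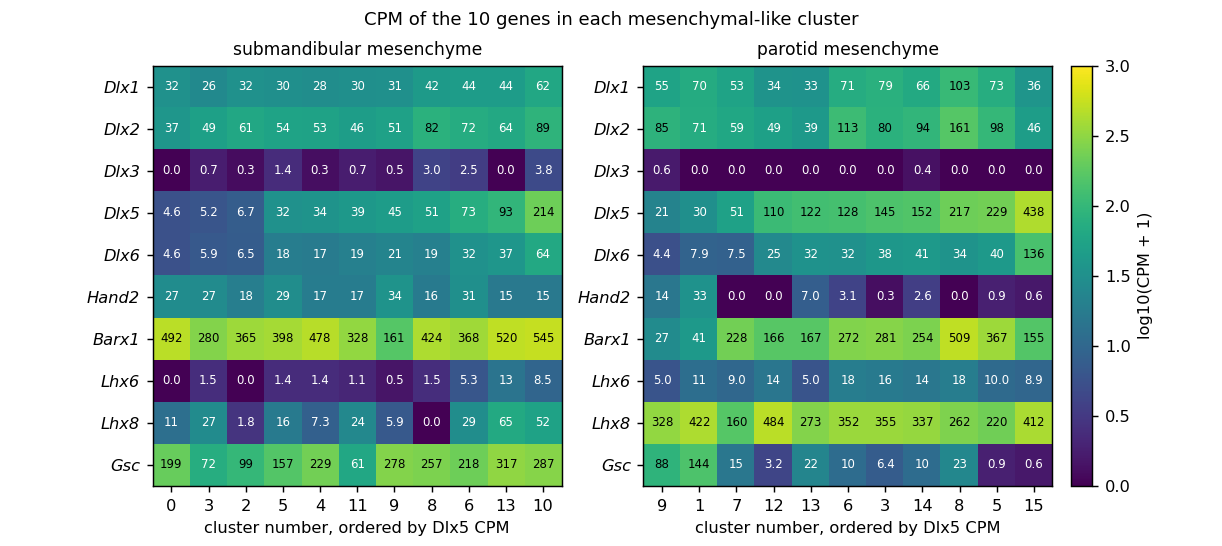
CPM of each gene (rows) in each mesenchymal-like cluster (columns, ordered by Dlx5 level within a library); colour gives log10(CPM + 1) and the numbers give CPM. In submandibular mesenchyme (left) Gsc and Hand2 are present in every cluster, whereas in parotid mesenchyme (right) they stand out in clusters 9 and 1, which have the lowest Dlx5 and Barx1.

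In submandibular mesenchyme, Hand2 was even, from 15.2 to 34.2 CPM over the 11 clusters, and Gsc ran from 61.4 to 316.7 CPM, so that no cluster lacked them. Dlx5 ran from 4.57 to 214.1 CPM there, a 46.8-fold range, and Dlx6 from 4.57 to 64.3 CPM. Cluster 10, of 360 cells, had the highest Dlx5, Dlx6, Dlx1, Dlx2 and Barx1 (545.1 CPM), together with a Gsc level of 286.9 CPM. Cluster 13, of 351 cells and led by the retinoic acid synthesis gene Aldh1a2, had the highest Gsc (316.7 CPM), Lhx8 (64.6 CPM) and Lhx6 (13.3 CPM).

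In parotid mesenchyme, Gsc ran from 0.556 to 143.8 CPM and Hand2 from 0 to 33.2 CPM, and 2 clusters held most of both. Cluster 1, of 103 cells, had 143.8 CPM of Gsc (115.8 to 176.6) and 33.2 CPM of Hand2 (20.5 to 50.7). Cluster 9, of 338 cells, had 87.9 CPM of Gsc and 14.4 CPM of Hand2. These clusters also had the lowest Dlx5 (30.0 and 20.7 CPM in clusters 1 and 9) and the lowest Barx1 (41.1 and 27.0 CPM), while their Lhx8 (422 and 327.6 CPM) was within the parotid range. The opposite end was cluster 15, of 336 cells and led by the neurofilament gene Nefl and the T-box gene Tbx18, with the highest Dlx5 (437.5 CPM) and Dlx6 (136.2 CPM) and the lowest Gsc (0.556 CPM, 1 UMI). The summed level of 6 neuronal markers was highest there too, at 252.4 CPM against 60.3 to 230.8 CPM in the other parotid clusters, with Elavl3 at 0, and its part in the Dlx5 level was not tested. Cluster 8 had the highest Barx1 (509.2 CPM), Dlx2 (160.7 CPM) and Dlx1 (103.1 CPM).

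Pearson correlations of log2(CPM + 10) over the 11 clusters of a library describe this arrangement; clusters of 1 library share its cells and depth, so no p is given. The linked pairs varied together in both mesenchymes: Dlx5 with Dlx6 had r = 0.994 in submandibular and 0.953 in parotid mesenchyme, and Dlx1 with Dlx2 had r = 0.811 in submandibular and 0.917 in parotid mesenchyme. Dlx5 with Gsc had r = 0.604 in submandibular and -0.815 in parotid mesenchyme. Hand2 with Gsc had r = -0.062 in submandibular and 0.894 in parotid mesenchyme, where both were concentrated in clusters 1 and 9. Hand2 with Barx1 was negative in both, at -0.629 in submandibular and -0.830 in parotid mesenchyme.

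The genes whose cluster pattern was most like each member were sought among 5455 genes over the 22 clusters, with each library centred on its own mean. For Dlx5 these were Dlx6 (r = 0.958), Dlx6os1 (0.872) and Rae1 (0.826), and for Dlx1 they were Dlx2 (0.886), the semaphorin gene Sema3a (0.815) and Rnf121 (0.774). Sema3a also followed Dlx2 (0.845), before Tle3 (0.764), which had r = 0.136 within submandibular and 0.916 within parotid clusters. Prss23 (0.773) came after Dlx5 and Dlx6os1 for Dlx6. Lhx6 was most like the WNT antagonist gene Frzb (0.860), with Prmt1 at 0.792, and Lhx8 most like the stem cell marker gene Lgr5 (0.839), with r = 0.872 in submandibular and 0.676 in parotid clusters, followed by Aif1l (0.819) and Net1 (0.805). Gsc was most like the AP-1 gene Jun (0.838), Cep44 (0.792) and Bcl11a (0.779). For Hand2 the ephrin receptor gene Epha7 (0.806) came first, but with r = -0.042 within submandibular and 0.942 within parotid clusters, so the likeness rests on parotid cells; Ss18 (0.796) and Cep44 (0.765, with 0.041 in submandibular clusters) came next. The same held for Barx1 and Txnrd1 (0.798), with r = 0.148 in submandibular and 0.963 in parotid clusters, ahead of Zfp462 (0.793) and Xrcc5 (0.790).

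Overlap within single cells was measured after thinning every cell to 3000 UMIs, which left out 148 submandibular and 114 parotid mesenchymal-like cells. Of 4079 submandibular cells, 65.2% had a UMI of Barx1, 37.4% of Gsc, 15.7% of Dlx2, 12.9% of Dlx5, 10.8% of Dlx1, 6.33% of Hand2, 6.23% of Dlx6, 5.22% of Lhx8, 0.932% of Lhx6 and 0.270% of Dlx3. Of 3796 parotid cells, 54.2% had a UMI of Lhx8, 43.4% of Barx1, 32.0% of Dlx5, 19.6% of Dlx2, 15.5% of Dlx1, 9.35% of Dlx6, 5.27% of Gsc, 3.58% of Lhx6, 0.764% of Hand2 and 0.0263% of Dlx3. Barx1 and Gsc thus had the largest shares in submandibular cells, and Lhx8, Barx1 and Dlx5 in parotid cells. At the same depth, erythroid-like cells, which should lack these genes, gave the background: of 106 in submandibular mesenchyme 3 had a UMI of Barx1 and 3 of Gsc (2.83% each) and 1 of Dlx5, and of 69 in parotid mesenchyme 1 each had Dlx1, Lhx8, Barx1 or Gsc (1.45%). A share of 0 there allows up to 2.83% in submandibular and 4.35% in parotid mesenchyme, so Hand2 and Lhx6 in parotid cells, Lhx6 in submandibular cells and Dlx3 in both mesenchymes cannot be told from background by their shares of cells. The same holds for Gsc in parotid cells, whose 5.27% lies within the interval of the erythroid-like share (0.0367 to 7.81%). By summed level Gsc had 17.9 CPM in parotid mesenchymal-like cells (16.2 to 19.6) and 0.849 CPM in parotid erythroid-like cells (0.0215 to 4.73). Without thinning, the median erythroid-like depth was 17195 UMIs in submandibular and 16904 UMIs in parotid mesenchyme, against 5269 and 5561.5 UMIs in mesenchymal-like cells, and a UMI of Gsc was in 51.4% of submandibular and 7.78% of parotid mesenchymal-like cells. The unthinned erythroid-like shares were 9.43% for Gsc and 9.43% for Barx1 in submandibular mesenchyme, and 11.6% for Lhx8, 10.1% for Barx1 and 1.45% for Gsc in parotid mesenchyme.

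Most cells held UMIs of few members. In submandibular mesenchyme 13.8% of cells had a UMI of none of the 10, 36.7% of 1 and 31.2% of 2, and 7 cells had 6, the highest number. In parotid mesenchyme 11.4% of cells had a UMI of none, 29.1% of 1 and 33.1% of 2, and 4 cells had 6. A cell with Dlx1 or Dlx2 together with Dlx5 or Dlx6 was seen in 5.44% of submandibular cells (4.77 to 6.18%) and 11.9% of parotid cells (10.9 to 13.0%). That was 1.29 and 1.03 times the product of the shares in submandibular and parotid mesenchyme. Barcodes with UMIs of both the whole-arch pair and the lower jaw pair of the Dlx family were thus seen in both mesenchymes. No doublets were removed, and the part of doublets and background RNA in these barcodes was not tested.

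**Figure D4:**
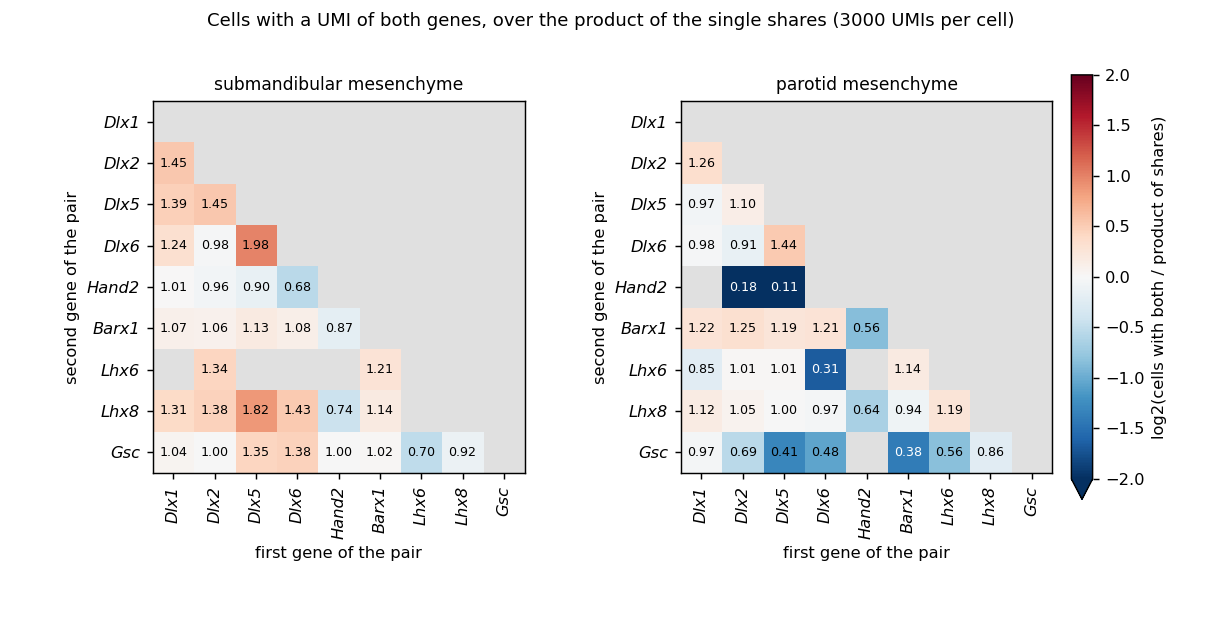
Cells with a UMI of both genes of a pair, divided by the product of their single shares, after thinning to 3000 UMIs per cell; colour gives the log2 of this ratio (values under -2 share the darkest blue), grey means a product under 5 cells, and Dlx3 is left out. Submandibular mesenchyme (left) shows Dlx5 with Dlx6 at 1.98. In parotid mesenchyme (right) the row of Gsc runs from 0.38 with Barx1 and 0.41 with Dlx5 to 0.86 with Lhx8 and 0.97 with Dlx1.

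Of the 45 pairs, 32 in each mesenchyme had a product of at least 5 cells. In submandibular mesenchyme 2 pairs were at or above 1.5 times their product and 0 at or under 0.67. Dlx5 and Dlx6 were together in 65 cells, 1.98 times the product (1.53 to 2.52). Dlx5 and Lhx8 were together in 50 cells, 1.82 times (1.350 to 2.39), although this pair came to 1.21 at 5000 UMIs per cell. With the product taken cluster by cluster, the ratios were 1.17 for Dlx5 with Dlx6 and 1.08 for Dlx5 with Lhx8. The excess of both pairs thus lay mostly between clusters. In parotid mesenchyme 0 pairs were above and 9 under, of which 4 held Gsc and another 4 held Hand2. The intervals treat the product as fixed.

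In parotid mesenchyme cells with both Gsc and Barx1, or Gsc and Dlx5, were fewer than the product of the shares, with 1 UMI of Gsc or more in 200 cells. Gsc and Barx1 were together in 33 of 3796 cells, 0.380 times the product (0.262 to 0.533), and Barx1 was in 16.5% of cells with Gsc (11.6 to 22.4%) and 44.9% of cells without it (43.2 to 46.5%). Gsc and Dlx5 were together in 26 cells, 0.406 times the product (0.266 to 0.594), and Gsc and Dlx6 in 9 cells, 0.481 times (0.220 to 0.913). In submandibular mesenchyme the same pairs stood at 1.02 for Gsc and Barx1 (0.967 to 1.08, 1015 cells), 1.351 for Gsc and Dlx5 (1.20 to 1.52) and 1.38 for Gsc and Dlx6 (1.16 to 1.63). Measured within clusters, where the product is taken cluster by cluster, the parotid ratios were 0.654 for Gsc and Barx1, 0.806 for Gsc and Dlx5 and 0.910 for Gsc and Dlx6. The submandibular ratios within clusters were 1.015 for Gsc and Barx1, 1.141 for Gsc and Dlx5 and 1.191 for Gsc and Dlx6. The low parotid ratios of Gsc with Dlx5 and Dlx6 thus lay mostly between clusters.

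Hand2 was in 29 parotid cells after thinning, and its overlaps rest on few molecules. It shared 1 cell each with Dlx2 (0.176 times the product, 0.00445 to 0.980) and Dlx5 (0.108 times, 0.00273 to 0.5999), 7 cells with Barx1 (0.556 times, 0.224 to 1.15) and 10 with Lhx8 (0.636 times, 0.305 to 1.17). Gsc was in 9 of these 29 cells, 31.0% (15.3 to 50.8%), and in 5.07% of cells without Hand2 (4.39 to 5.82%); with a product of 1.53 cells this pair was not counted. In submandibular mesenchyme Gsc was in 37.2% of cells with Hand2 (31.3 to 43.4%) and 37.4% of cells without it (35.8 to 38.9%), a ratio of 0.996. Within parotid clusters the ratio was 1.15 for Hand2 and Barx1 and 0.215 for Hand2 and Dlx5. The other pairs under 0.67 in parotid mesenchyme were Lhx6 with Gsc (4 cells, 0.558 times) and Lhx6 with Dlx6 (4 cells, 0.315 times). Of the 9, Lhx6 with Gsc, Lhx6 with Dlx6 and Hand2 with Lhx8 passed 0.67 without thinning, at 0.698, 0.870 and 0.827.

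In the epithelia, Barx1 was the one member at 10 CPM or more. It had 618 UMIs, 16.2 CPM (14.9 to 17.5), in submandibular epithelial-like cells and 13 UMIs, 0.975 CPM (0.519 to 1.67), in parotid ones, a ratio of 16.6 (9.62 to 31.3). Over all 7712 genes at 10 CPM or more, 2.81% were called higher in submandibular epithelium, 3.86% in parotid epithelium and 6.68% either way. Barx1 was present in all 9 submandibular epithelial-like clusters, from 5.11 to 35.3 CPM. In parotid epithelium, cluster 5, of 126 cells, held 12 of the 13 Barx1 UMIs, at 15.1 CPM, and cluster 6 held the other. The parotid side of the ratio thus rests almost wholly on cluster 5. The mesenchymal marker sum of cluster 5 was 204 CPM, against 15.1 to 34.7 CPM in the other 9 clusters. The part of mesenchymal RNA in the parotid Barx1 level was not tested. With finer clusters (Leiden resolution 1.6) the log2 ratio of Barx1 between the epithelia was 7.75, against 4.05 at 0.8.

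Mesenchymal markers were read beside these values. The Barx1 level of submandibular epithelium was 4.13% of that in submandibular mesenchyme (3.80 to 4.48%), and Gsc stood at 0.0547%, Col3a1 at 0.0127%, Lum at 0.0282% and Prrx1 at 0 of 12266 mesenchymal UMIs. Of the 9 mesenchymal markers, Fbn2 stood at 14.2% and Postn at 3.77%, and the remaining 7 lay between 0 and 0.241%. Over the submandibular epithelial-like clusters the summed mesenchymal markers ranged from 10.6 to 17.7 CPM, with Prrx1 at 0 in all 9. Barx1 varied 6.90-fold over these clusters. The part of mesenchymal RNA in the submandibular epithelial Barx1 level was not tested.

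Dlx2 and Dlx5 were found in parotid epithelium below 10 CPM. Dlx2 had 5 UMIs, 0.131 CPM, in submandibular and 122 UMIs, 9.15 CPM (7.60 to 10.9), in parotid epithelial-like cells, a 70.0-fold higher level in parotid cells (29.2 to 219.4). The log2 ratio, submandibular over parotid, was -6.13, and -7.88 with a cell filter of 1000 genes or more and a mitochondrial share of 5% or less. Dlx2 was highest in parotid epithelial cluster 0, of 221 cells and led by the keratin and chemokine genes Krt14 and Cxcl14, at 23.9 CPM (17.3 to 32.1), and that cluster had 0 UMIs of Barx1. The 120 epithelial-like cells of the parotid mesenchyme library had 16.9 CPM of Dlx2 (10.0 to 26.7), but also 18.8 CPM of Lhx8 (11.5 to 29.0), 13.2 CPM of Barx1 and 9.397 CPM of Dlx5, and the part of mesenchymal RNA in these values was not tested. Dlx5 had 10 UMIs, 0.262 CPM, in submandibular and 45 UMIs, 3.38 CPM, in parotid epithelial-like cells. Its highest level was 11.3 CPM (5.18 to 21.5, 9 UMIs) in parotid cluster 5, the cluster with the high mesenchymal marker sum, and it ran from 0.703 to 6.72 CPM in the other 9 clusters. The Dlx2 level in parotid epithelium was 11.5% of that in parotid mesenchyme and the Dlx5 level 2.17%, while Barx1 stood at 0.404%, Lhx8 at 0.1895%, Col3a1 at 0.606% and Lum at 0.662%. Of the 9 mesenchymal markers in parotid glands, Postn stood at 11.4% (9.33 to 13.8%), level with Dlx2, and Fbn2 at 4.23%, above Dlx5, while the remaining 7 lay between 0.165 and 1.18%.

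Dlx3 was the member with its higher level in epithelium in both glands. It had 4.32 CPM (3.68 to 5.03) in submandibular and 9.002 CPM (7.46 to 10.8) in parotid epithelial-like cells, 2.09-fold higher in parotid cells (1.64 to 2.66) but under 10 CPM. Against epithelium, its level in mesenchyme was 3.75-fold lower in submandibular glands (2.50 to 5.82) and 106.6-fold lower in parotid glands (28.9 to 890.4), where the parotid value rests on 2 mesenchymal UMIs. It was highest in submandibular cluster 8 (10.9 CPM, 7.86 to 14.9) and in parotid cluster 4 (14.7 CPM, 9.77 to 21.2). The remaining members were at or near 0 in epithelium: Dlx6 had 0 UMIs in both glands, and in submandibular cells Gsc had 4, Hand2 2 and Lhx6, Lhx8 and Dlx1 1 UMI each. In parotid cells Gsc, Hand2 and Lhx6 had 0 UMIs, Lhx8 had 8 and Dlx1 had 11, of which all 8 of Lhx8 and 7 of Dlx1 were in cluster 5.

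Mesenchyme was set against epithelium of the same gland. In submandibular glands 8 members reached 10 CPM, and 8 of 8 were at least 2-fold higher in mesenchyme, where the share over 8634 genes was 19.5%, while 9.3% were higher in epithelium and 28.8% called either way. In parotid glands 8 of 8 were likewise higher in mesenchyme, against 11.5% of 8353 genes, with 8.48% higher in epithelium and 19.9% called either way. Except for Barx1 in submandibular glands, these members reached 10 CPM in mesenchyme alone, so the minimum itself set their direction. It also left out Dlx3, higher in epithelium, and Lhx6 in submandibular and Hand2 in parotid glands, higher in mesenchyme. The counts of 8 are thus no measure of a preference for mesenchyme. With TMM scaling (trimmed mean of M-values), which moved the log2 ratio of every gene by -0.29, the split over all genes in submandibular glands was 1096 higher in mesenchyme and 1219 in epithelium, against 1680 and 803 with scaling to the total, and the 8 members kept their calls. The ratio was 24.2 for Barx1 in submandibular glands (22.3 to 26.3) and 8.67 for Dlx2 in parotid glands (7.22 to 10.5), the smallest in each gland. Dlx6 had 0 epithelial UMIs. Set against 3 UMIs over the epithelial class, it was 299.6-fold higher in submandibular and 164.7-fold higher in parotid mesenchyme. The counting intervals of its ratio had lower limits of 242.9 in submandibular and 133.7 in parotid glands.

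Among the minor cell classes of the mesenchyme libraries, neural-like cells and chondrogenic-like cells carried some members. In submandibular mesenchyme 146 neural-like cells had 72.0 CPM of Hand2 (59.1 to 86.8), against 22.0 CPM in mesenchymal-like cells, and 128.7 CPM of Dlx2 (111.3 to 148.1), against 60.7 CPM. Their Barx1 (11.9 CPM) and Gsc (11.2 CPM) were close to the levels in erythroid-like cells (11 CPM for Barx1 and 12.1 CPM for Gsc). The 16 neural-like cells of parotid mesenchyme had 139.8 CPM of Dlx2 (84.2 to 218.3) and 0 UMIs of Hand2, which allows up to 27.1 CPM. Hand2 is known from mouse sympathetic and enteric neurons, and Dlx2 from neural crest and forebrain.

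**Figure D5:**
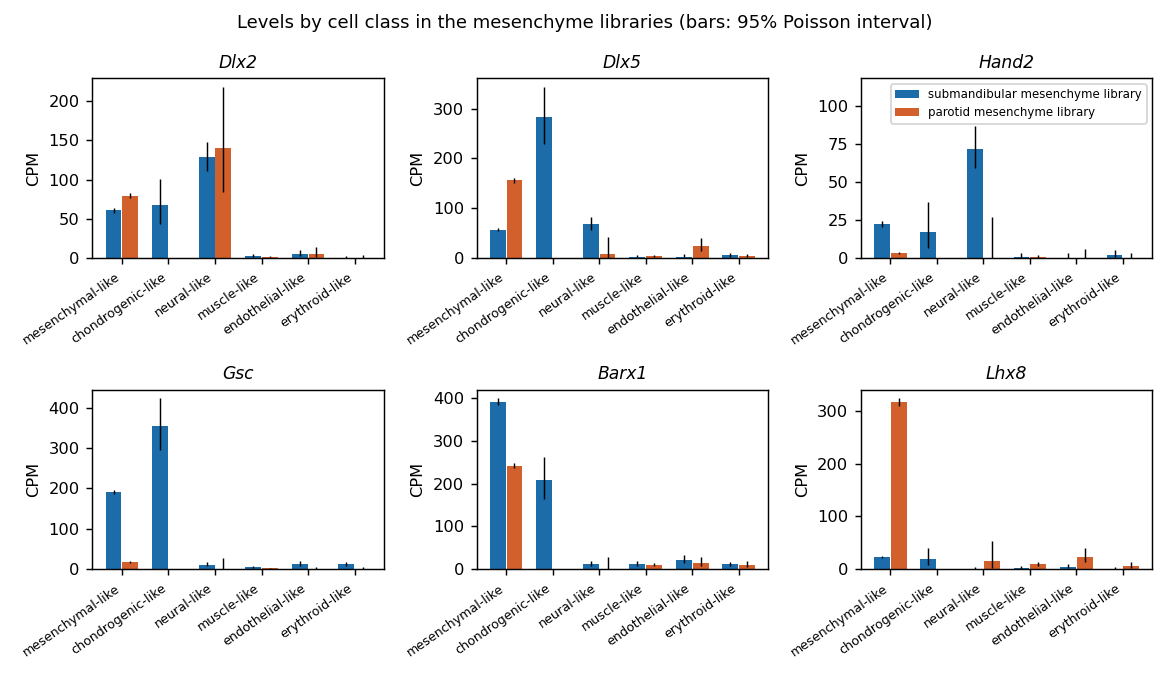
CPM of 6 genes in the cell classes of the submandibular and parotid mesenchyme libraries, with 95% Poisson intervals; no chondrogenic-like cluster was found in the parotid library, so that place holds no bar. Hand2 is highest in submandibular neural-like cells at 72.0 CPM, and Gsc and Dlx5 are highest in submandibular chondrogenic-like cells at 355.6 and 282.2 CPM.

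The 56 chondrogenic-like cells of submandibular mesenchyme had 355.6 CPM of Gsc (296.2 to 423.4), 282.2 CPM of Dlx5 (229.6 to 343.3), 107.2 CPM of Dlx6 (75.9 to 147.2) and 208.8 CPM of Barx1 (164 to 262.2). In the mesenchymal-like cells of that library the levels were 191.3 CPM for Gsc, 56.5 CPM for Dlx5, 23.5 CPM for Dlx6 and 391.2 CPM for Barx1. Gsc, Dlx5 and Dlx6 were thus higher and Barx1 lower in the chondrogenic-like cells. Skeletal muscle-like cells, which do not come from neural crest, had at most 3.59 CPM of any Dlx gene, and 0.584 and 0.276 CPM of Hand2 in submandibular and parotid mesenchyme.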

How the data were processed

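The values are whole-number UMI counts per gene and cell barcode, deposited by the authors for 4 libraries and not normalized; per the submitters' processing notes they were made with Cell Ranger 2.1.1 and mm10. Libraries were pooled and sequenced together, per the labels' protocols, and held 14004908 to 39621166 UMIs. Of 15351 barcodes, 14884 passed the filter of 500 genes or more and a mitochondrial share of 10% or less. Each library was clustered (scanpy 1.11.5, 2000 variable genes, 30 principal components, 15 neighbours, Leiden resolution 0.8) with the members and pathway genes left out of the variable genes. Clusters were named from 11 marker lists, with at least 3 markers each in at least 25% of cells; neural crest and neuronal lists were merged after the data were seen. Scrublet called 9 cells (0.0605%), which means that it did not work, and no doublets were removed.

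UMIs were summed over each class of cells and scaled to 1000000 UMIs of the class (CPM). With 1 library a group there is no test; a call needs a ratio of 2 or more and 10 CPM or more in whichever group is higher. A class at 0 was set against 3 UMIs over the class. Intervals are exact Poisson, Clopper-Pearson or conditional binomial, at 95%, and cover counting error only. For overlap, cells were thinned to 3000 UMIs, and cells with both genes were divided by the product of the single shares; pairs at 1.5 or above, or 0.67 or under, were counted where the product was at least 5 cells. The named genes are the 10 members, up to 4 called genes of each pathway list, and the 3 genes most like each member over clusters; a few genes that this rule names are not reported here. The ratio, thinning and overlap code was tested on simulated data first. Members and lists were chosen with earlier results of these data known. Alternatives were TMM scaling (edgeR 4.0.16), 50 CPM or no minimum, a filter of 1000 genes or more and 5% mitochondrial UMIs or less, all kept barcodes in place of the named class, resolution 1.6, clustering with all variable genes, the 5% highest doublet scores left out, and thinning to 2000, 5000 or no fixed number of UMIs. Gene positions are from GENCODE M21 (GRCm38), which matched 27645 of 27998 gene IDs.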

Additional observations from a re-analysis of the deposited data

Results flagged for a closer look

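Gsc with each of the lower jaw genes Dlx5 and Dlx6 was picked because its overlap lay on opposite sides of 1 in the glands. The choice was made from the values, so the opposite sides and the intervals that do not meet are no separate result. The intervals are over cells of 1 library per gland and do not cover differences between embryos, litters or dissections. The difference between the glands was not tested, since each gland is 1 library. For Dlx5 and Gsc, cells with both were 1.351 times the product of the single shares in submandibular mesenchyme (1.198 to 1.517) and 0.4062 times in parotid mesenchyme (0.2656 to 0.5942). Gsc was in 50.5% of submandibular cells with Dlx5 (46.1 to 54.8%) and 35.4% of those without it, and in 2.14% of parotid cells with Dlx5 (1.40 to 3.12%) and 6.74% of those without it. For Dlx6 and Gsc the ratio was 1.38 in submandibular mesenchyme (1.157 to 1.633) and 0.4812 in parotid mesenchyme (0.2202 to 0.9127). Over the alternative settings Dlx5 and Gsc ranged from 1.28 to 1.38 in submandibular and 0.3602 to 0.4255 in parotid mesenchyme, and Dlx6 and Gsc from 1.29 to 1.44 in submandibular and 0.392 to 0.481 in parotid mesenchyme. With the product taken cluster by cluster, all 4 ratios lay nearer to 1. They were 1.141 in submandibular and 0.8058 in parotid mesenchyme for Dlx5 and Gsc, and 1.191 and 0.9096 for Dlx6 and Gsc. No intervals were computed for these ratios.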

How the results depend on the processing

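Reversal of direction was looked for only in members called at the main setting, and none of these reversed under any alternative listed. Members without a call were not checked for it. Leaving out the 5% highest Scrublet scores cannot show what doublets do to these results, since Scrublet did not work here. At 50 CPM the members called higher in submandibular mesenchyme were 1 in place of 2, those higher in submandibular epithelium 0 in place of 1, and those higher in mesenchyme than in epithelium 4 in submandibular and 5 in parotid glands in place of 8. With no minimum, 5 members were higher in parotid than in submandibular epithelium in place of 0, and 1 was higher in epithelium than in mesenchyme of each gland. For overlap in submandibular mesenchyme, the pairs at or above 1.5 were 4 at 2000 UMIs, 4 at 5000 UMIs and 6 without thinning, in place of 2, and the pairs at or under 0.67 were 1 at 2000 UMIs and 1 with the stricter cell filter, in place of 0. In parotid mesenchyme 1 pair was above at 2000 UMIs in place of 0. The cause of these changes was not tested, beyond the lower number of genes that reach 50 CPM and the higher number with no minimum. TMM scaling moved log2 ratios by -0.12 between mesenchymes, 0.10 between epithelia, -0.29 for submandibular and -0.04 for parotid mesenchyme over epithelium, and moved no count of members called. Over all genes, calls higher in submandibular and parotid cells were 130 and 117 at 50 CPM and 2406 and 1390 with no minimum between mesenchymes, in place of 511 and 329, and 63 and 85 at 50 CPM and 934 and 1713 with no minimum between epithelia, in place of 217 and 298. Calls higher in mesenchyme and epithelium were 455 and 325 at 50 CPM and 4856 and 2029 with no minimum in submandibular glands, in place of 1680 and 803, and 306 and 211 at 50 CPM and 2647 and 2257 with no minimum in parotid glands, in place of 957 and 708. No paired analysis was possible because each group is 1 library with no replicate. Depth limits Dlx3 in mesenchyme and Lhx6 and Hand2 in single parotid cells.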

Other observations

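Genes of the endothelin and oral ligand lists were also read in epithelium, the tissue that signals to the arch mesenchyme in mouse. Fgf8, a fibroblast growth factor of oral ectoderm, had 0.262 CPM in submandibular and 37.4 CPM in parotid epithelial-like cells. The WNT ligand gene Wnt7b had 18.9 CPM in submandibular and 141.3 CPM in parotid epithelial-like cells. The endothelin ligand genes Edn2 (0.445 CPM in submandibular and 12.8 CPM in parotid cells) and Edn3 (0.863 CPM in submandibular and 10.5 CPM in parotid cells) were higher in parotid epithelium, whereas Edn3 in mesenchyme was higher in submandibular cells. Bmp7, a bone morphogenetic protein gene, had 24.9 CPM in submandibular and 2.87 CPM in parotid mesenchymal-like cells. Among the other lists, Pax9 (64.2 CPM in submandibular and 24.3 CPM in parotid cells) and Plagl1 (23.5 CPM in submandibular and 9.15 CPM in parotid cells) were higher in submandibular epithelium. Irx5 (5.33 CPM in submandibular and 56.6 CPM in parotid cells) was higher in parotid epithelium. None of these differences has a test, since each group is 1 library.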
